A study of Rattus norvegicus with 20 samples.

Results

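The 8 genes described here encode proteins that build, cut or bind the extracellular matrix of the heart, signals that promote fibrosis, and cytoskeletal proteins of fibroblasts and smooth muscle. They are Timp1, Mmp2, Fn1, Spp1, Ccn2, Tgfb1, Vim and Acta2. The genes were chosen by name, without a threshold on any measured value, but with earlier results of these data known. All 8 of their Ensembl identifiers were present among the 30452 rows of the count table. Messenger RNA was counted in whole right ventricle (RV) and left ventricle (LV) tissue of male rats. The 4 groups had 5 libraries each: RV after monocrotaline (MCT), RV after saline, LV after MCT and LV after saline. MCT is a plant alkaloid that damages the vessels of the lung, and it is used to raise the pressure against which the RV pumps. Rats weighing 250 g received MCT at 60 mg/kg, or saline solution, and were followed until a discomfort score of 7 or more was reached. The labels give neither strain nor age. They also do not say that each library of a group is a different animal, so the spread behind every p-value here may be partly technical.

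Fibroblasts of a stressed heart can be activated by transforming growth factor beta and by mechanical load. Activated cells secrete fibronectin and matricellular proteins, change the balance between matrix metalloproteinases and their tissue inhibitors, and can take up smooth muscle actin as they become myofibroblasts. Vimentin, the intermediate filament of mesenchymal cells, is also abundant in endothelial cells and leukocytes, and osteopontin is made by macrophages as well as by fibroblasts. Whole ventricle tissue holds all of these cells together with cardiomyocytes. More cells of one type and more RNA per cell cannot be told apart in such tissue.

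Total counts ran from 3272420 to 9227104 per library. Levels are given as CPM, reads of a gene scaled to a library size common to all libraries, with TMM, a method that compensates for a few genes taking a large part of a library. Tgfb1 is given as CPM of the total counts, since it fell below the filter on low counts. A gene was called changed when its adjusted p from the edgeR quasi-likelihood test over all 10929 genes tested was under 0.05. LV MCT replicate 3 and RV MCT replicate 4 stood apart: neither was above the saline libraries of its ventricle for Timp1 or Spp1. RV saline replicate 1 stood apart in the other direction, with the highest Timp1, Fn1, Spp1, Ccn2, Vim and Acta2 levels among the RV saline libraries. The scaling factors of TMM moved with treatment in the LV, from 0.815 to 0.934 after saline and from 1.08 to 1.32 in MCT replicates 1, 2, 4 and 5, with 0.788 in MCT replicate 3. Scaling by total counts alone raised the median log2 fold change of all genes tested from 0.03 to 0.39 in the LV and from 0.01 to 0.15 in the RV, and the calls in the LV went from 596 higher and 444 lower to 2051 higher and 91 lower. That scaling gave the same 5 called members in the LV and none in the RV.

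**Figure D1:**
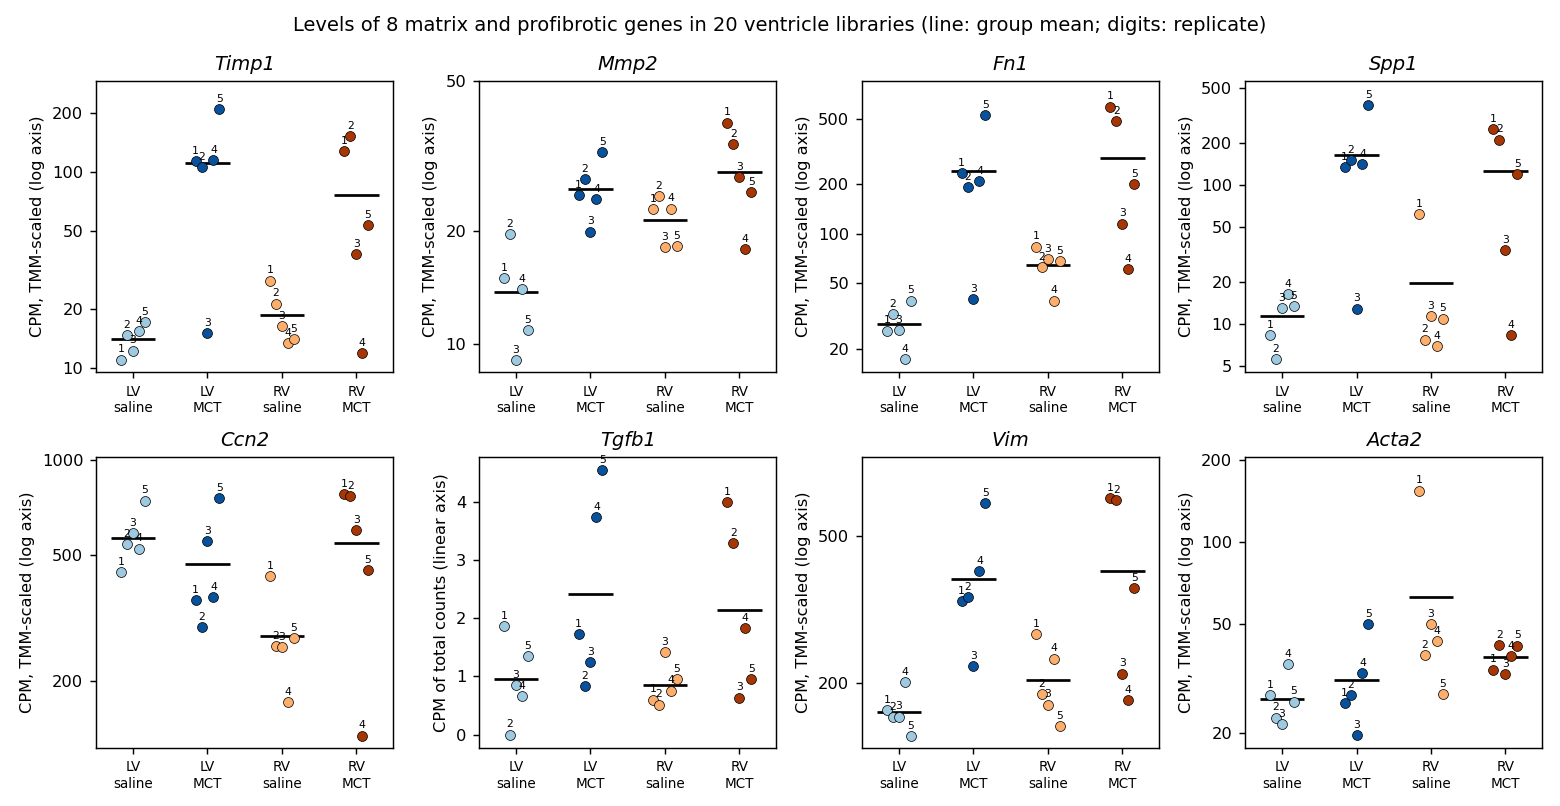
Level of each gene in the 20 libraries, by group on the horizontal axis, as TMM-scaled CPM on a log axis (Tgfb1 as CPM of total counts on a linear axis). Points are libraries with their replicate numbers and lines are group means. For Timp1 and Spp1, LV MCT replicate 3 and RV MCT replicate 4 are no higher than the saline libraries of their ventricle, and Acta2 shows RV saline replicate 1 at 155 CPM, above all others.

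In the LV, 5 of the 7 members tested rose after MCT: Spp1, Fn1, Timp1, Vim and Mmp2. None fell, and Ccn2 and Acta2 did not pass the test. Among all genes tested, 5.45% were called higher and 4.06% lower. In the RV, 0 of the 7 passed the edgeR test in either direction, where 0.238% of all genes were called higher and 0.0366% lower. At an unadjusted p under 0.05 the RV count was 7 of 7, against 17.5% of all genes, and the LV count was 5 of 7, against 25.3%. Among the 7 in the RV, Acta2 was lower after MCT (log2 fold change -0.74, and -0.077 without RV saline replicate 1) and the others were higher. The median log2 fold change of the members was 1.19 in the LV and 0.98 in the RV, beside 0.03 and 0.01 over all genes tested. DESeq2 called Timp1, Fn1, Spp1 and Vim higher in the RV, 4 of 7 against 2.58% of all genes, while limma voom called 0 of 7 against 1.13%.

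The groups were also compared by overlap. In the LV, all 5 MCT libraries lay above all 5 saline libraries for Mmp2, Fn1 and Vim, 3 of 7 members, where 3.21% of all genes did so. In the RV, 0 of 7 members had MCT libraries entirely above the saline libraries, where 0.961% of all genes did, and none had them entirely below, where 1.42% did. The 3 LV separations were lost with CPM from total counts, where the count was 0 of 7 although the 5 LV calls held. With that scaling, 5.70% of all genes lay entirely above saline in the LV.

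**Figure D2:**
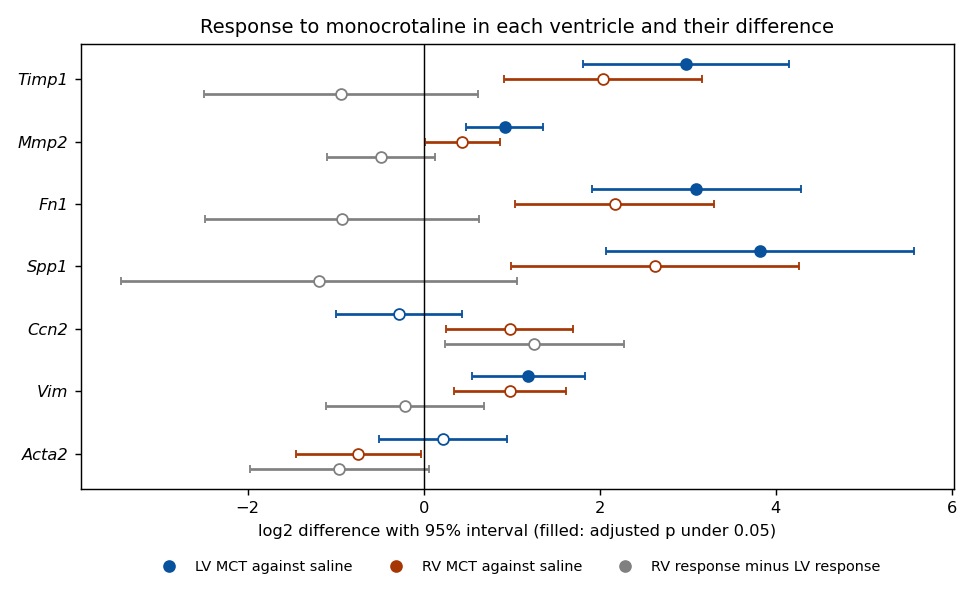
Log2 difference between MCT and saline for each gene in the LV (blue) and RV (brown), and the RV response minus the LV response (grey), with 95% intervals on the horizontal axis. Filled points have an adjusted p under 0.05; these are Timp1, Mmp2, Fn1, Spp1 and Vim in the LV.

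The promoter windows of Timp1, Spp1 and Ccn2 are shown because Timp1 and Spp1 had the most similar levels of all member pairs, and because Ccn2, which was not called in the LV, is a known target of the TEAD factors. The windows are the 250 bases before the RefSeq start site in build GRCr8, and 6 of the 8 members had an entry. The windows lie at chrX:3771123-3771372 for Timp1, chr14:5619805-5620054 for Spp1 and chr1:22624615-22624864 for Ccn2, all on the minus strand and written 5′ to 3′ in the direction of the gene. Capitals mark matches, on either strand, to short motifs of factors known from fibrotic and mechanical signalling and of the core promoter. The TEAD motif searched was GGAATG, and TEAD factors act with YAP downstream of cell stretch. The SMAD motif was CAGAC, and SMAD proteins carry the signal of transforming growth factor beta. The GC box was GGGCGG. The TATA box was TATAAA. For AP-1 the motif was TGANTCA. No 2 matches overlap in these windows.
Timp1: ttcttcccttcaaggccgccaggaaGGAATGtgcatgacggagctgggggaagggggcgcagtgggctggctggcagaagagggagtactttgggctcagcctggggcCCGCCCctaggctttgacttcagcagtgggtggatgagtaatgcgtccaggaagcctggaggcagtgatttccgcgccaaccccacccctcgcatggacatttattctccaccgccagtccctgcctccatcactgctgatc
Spp1: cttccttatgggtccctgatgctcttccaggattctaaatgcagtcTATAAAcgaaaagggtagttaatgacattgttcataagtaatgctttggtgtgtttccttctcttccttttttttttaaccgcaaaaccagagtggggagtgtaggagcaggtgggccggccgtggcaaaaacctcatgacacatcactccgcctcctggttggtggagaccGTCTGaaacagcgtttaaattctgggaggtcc
Ccn2: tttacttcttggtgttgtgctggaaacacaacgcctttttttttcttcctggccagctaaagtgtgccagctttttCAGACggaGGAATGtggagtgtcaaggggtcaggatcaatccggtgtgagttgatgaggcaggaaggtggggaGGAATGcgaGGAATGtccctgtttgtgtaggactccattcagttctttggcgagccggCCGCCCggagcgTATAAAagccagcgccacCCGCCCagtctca

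The Ccn2 window held 3 copies of GGAATG, the Timp1 window 1 and the Spp1 window 0. Of the 33469 RefSeq promoter windows of the same length, 12.1% held at least 1 copy and 0.0807% held at least 3. The cut of 3 equals the count in the Ccn2 window, and Ccn2 was shown as a known TEAD target. The 0.0807% is thus a description and no test of Ccn2. CAGAC was found once each in the Ccn2 and Spp1 windows and not in that of Timp1, with 42.9% of all windows holding it. GGGCGG or its reverse complement was found 2 times in Ccn2, 1 time in Timp1 and 0 times in Spp1, with 30.5% of all windows holding it. TATAAA was found in the Spp1 and Ccn2 windows and in 12.9% of all. Its match lay at bases -204 to -199 from the start site in Spp1 and -31 to -26 in Ccn2. The search ignored position, so a match need not be a working TATA box. None of the 6 member windows held an exact match to TGANTCA, which was in 6.34% of all. Other forms of the AP-1 site were not searched. These matches describe the letters and no binding was measured.

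Timp1 (ENSRNOG00000010208), a secreted inhibitor of matrix metalloproteinases, rose about 8-fold in the LV. Its LV levels after MCT were 114, 106, 15.2, 114 and 208 CPM in replicates 1 to 5. After saline they were 11.1, 14.7, 12.3, 15.5 and 17.1 CPM. Thus 4 of 5 MCT libraries were above every saline library, and MCT replicate 3 lay among the saline libraries. The group means were 111 ± 68.4 CPM (SD, n = 5) and 14.2 ± 2.44 CPM, and the log2 fold change was 2.98 (SE 0.56, edgeR adjusted p = 0.0081), a fold of 7.88 with a 95% interval from 3.501 to 17.7.

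In the RV, Timp1 stood at 128, 151, 38.2, 11.9 and 53.6 CPM after MCT. After saline it stood at 27.9, 21.3, 16.4, 13.4 and 14.1 CPM. Again 4 of 5 MCT libraries exceeded all saline libraries, and replicate 4 was lower than every one of them. On the log2 scale the fold change was 2.04 (SE 0.54, edgeR adjusted p = 0.066), not enough to be called. Without RV MCT replicate 4 it was 2.31 (edgeR adjusted p = 0.0096), and without RV MCT replicate 2 it was 1.64 (edgeR adjusted p = 0.24).

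Mmp2 (ENSRNOG00000016695) encodes gelatinase A, a metalloproteinase that cuts denatured collagen and basement membrane components. It had the smallest change of the genes that rose in the LV. Its LV levels after MCT were 24.9, 27.5, 19.9, 24.2 and 32.4 CPM, and after saline 14.97, 19.6, 9.05, 14.01 and 10.9 CPM. The groups did not overlap, though LV MCT replicate 3 exceeded LV saline replicate 2 by little. It rose by 0.92 on the log2 scale (SE 0.21, edgeR adjusted p = 0.015).

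In the RV, Mmp2 was at 38.8, 33.96, 27.7, 17.9 and 25.3 CPM after MCT. After saline it was at 22.8, 24.7, 18.1, 22.9 and 18.2 CPM. MCT replicates 1, 2, 3 and 5 were above all saline libraries and replicate 4 below them all. The RV difference of 0.44 on the log2 scale (SE 0.20, edgeR adjusted p = 0.28) did not pass.

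Because both genes are read in the same library, their ratio does not depend on the scaling. In LV saline libraries there were 0.741 to 1.58 Timp1 reads per Mmp2 read. LV MCT replicates 1, 2, 4 and 5 had 3.84 to 6.42, while replicate 3 had 0.762, inside the saline range. In the RV the saline range was 0.587 to 1.22 and MCT replicates 1, 2, 3 and 5 had 1.38 to 4.46, with 0.667 in replicate 4. The ratio of the inhibitor to the protease was thus above the saline range in 8 of the 10 MCT libraries. The ratios are a description, since they combine genes already shown to differ in fold change.

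Fn1 (ENSRNOG00000014288), encoding fibronectin, the glycoprotein on which cells assemble new matrix, rose in the LV to a similar degree as Timp1. LV levels were 234, 192, 39.8, 209 and 524 CPM after MCT. After saline they were 25.7, 32.6, 25.9, 17.2 and 39.1 CPM. All MCT libraries were above all saline libraries, but replicate 3 exceeded LV saline replicate 5 by less than 1 CPM. The means were 239.8 ± 176 CPM (SD, n = 5) and 28.1 ± 8.23 CPM, and the log2 fold change was 3.098 (SE 0.57, edgeR adjusted p = 0.0075), a fold of 8.56 with a 95% interval from 3.75 to 19.5.

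In the RV, Fn1 reached 592 and 484 CPM in MCT replicates 1 and 2, and only LV MCT replicate 5 came near these levels. Replicates 3, 4 and 5 stood at 115, 60.9 and 201 CPM. The RV saline libraries held 83.3, 62.4, 69.9, 39.2 and 68.3 CPM, so replicate 4 fell among them. Its RV log2 fold change was 2.17 (SE 0.55, edgeR adjusted p = 0.061), and 2.43 without RV MCT replicate 4 (edgeR adjusted p = 0.0096). Leaving out RV MCT replicate 1 instead gave 1.73 (edgeR adjusted p = 0.22).

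Spp1 (ENSRNOG00000043451), encoding osteopontin, a secreted phosphoprotein that binds integrins and CD44, had the largest fold change of the members in both ventricles. LV levels were 134, 149.9, 12.95, 142 and 376 CPM after MCT and 8.32, 5.601, 13.1, 16.4 and 13.5 CPM after saline. MCT replicates 1, 2, 4 and 5 exceeded every saline library and replicate 3 lay among them. On the log2 scale Spp1 rose by 3.82 (SE 0.84, edgeR adjusted p = 0.013), a fold of 14.1 with a 95% interval from 4.18 to 47.5.

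In the RV, Spp1 was at 251, 212, 34.2, 8.402 and 119 CPM after MCT. After saline it was at 61.5, 7.76, 11.4, 7.004 and 10.97 CPM. RV saline replicate 1 was above MCT replicates 3 and 4, so 3 of 5 MCT libraries exceeded all saline libraries. With all libraries the log2 fold change was 2.63 (SE 0.79, edgeR adjusted p = 0.097). It was 3.75 without RV saline replicate 1 (edgeR adjusted p = 0.084) and 2.92 without RV MCT replicate 4 (edgeR adjusted p = 0.021). Leaving out RV MCT replicate 1 instead gave 2.21 (edgeR adjusted p = 0.30).

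**Figure D3:**
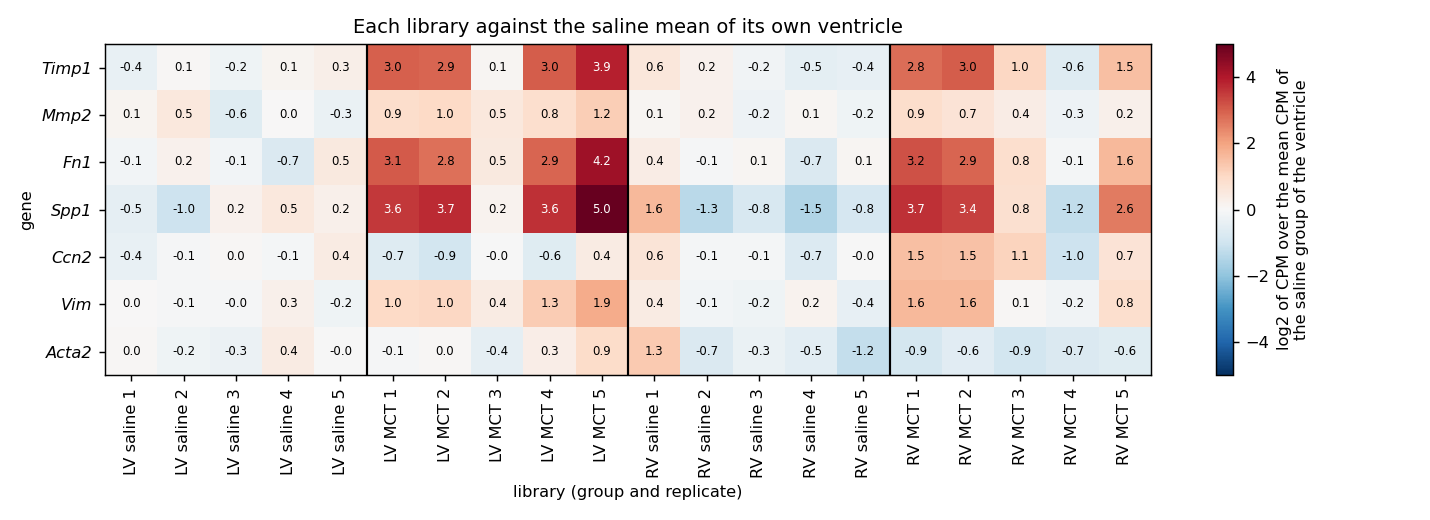
Log2 of the level in each library over the mean level of the saline group of the same ventricle, for 7 genes (rows) and 20 libraries (columns, by group and replicate). LV MCT replicate 5 holds the highest value for Timp1, Fn1 and Spp1, and for these 3 genes LV MCT replicate 3 and RV MCT replicate 4 have the lowest value of their MCT group.

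Tgfb1 (ENSRNOG00000020652), the cytokine that drives much of the matrix program in fibroblasts, had few reads in these libraries. Its counts ran from 4 to 29 reads in LV MCT, 0 to 12 in LV saline, 5 to 21 in RV MCT and 2 to 6 in RV saline libraries. The library with 0 reads allows up to 0.854 CPM, taking 3 counts as the limit and covering counting error only. In replicates 1 to 5, LV levels were 1.73, 0.832, 1.24, 3.74 and 4.55 CPM after MCT and 1.87, 0, 0.855, 0.665 and 1.35 CPM after saline. MCT replicates 4 and 5 were the highest of these. RV levels were 3.998, 3.29, 0.635, 1.83 and 0.947 CPM after MCT and 0.599, 0.515, 1.41, 0.756 and 0.958 CPM after saline. Mean levels were 2.42 ± 1.63 CPM (SD, n = 5) in LV MCT, 0.948 ± 0.707 in LV saline, 2.14 ± 1.46 in RV MCT and 0.848 ± 0.359 in RV saline. The MCT and saline libraries overlapped in both ventricles, with 2 LV MCT and 3 RV MCT libraries above all saline libraries.

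The filter on low counts left Tgfb1 out of the main test. With no filter, its log2 fold change was 0.84 in the LV (SE 0.54, edgeR adjusted p = 0.48) and 1.15 in the RV (SE 0.57, edgeR adjusted p = 0.41). The 95% intervals ran from -0.27 to 1.95 in the LV and from -0.0097 to 2.31 in the RV. No change was called in either ventricle.

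Ccn2 (ENSRNOG00000015036) encodes connective tissue growth factor, a matricellular protein induced by transforming growth factor beta and by the YAP and TEAD factors. It was not called in the LV. LV levels were 361, 297, 554, 369 and 757 CPM after MCT. After saline they were 441, 541, 587, 524 and 745 CPM. The ranges overlapped widely, with 1 MCT library above all saline libraries and MCT replicates 1, 2 and 4 below them all. For the LV, the log2 fold change was -0.28 (SE 0.35, edgeR adjusted p = 0.67), with a 95% interval from -0.998 to 0.44. It was 0.034 when libraries were scaled by total counts alone, so the sign depended on the scaling.

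In the RV, Ccn2 was at 782, 768, 599, 134 and 449 CPM after MCT. After saline it was at 429, 257, 257, 172 and 274 CPM. MCT replicates 1, 2, 3 and 5 exceeded all saline libraries and replicate 4 was below them all. For the RV, the log2 fold change was 0.98 (SE 0.35, edgeR adjusted p = 0.15). Without RV MCT replicate 4 it was 1.22 (edgeR adjusted p = 0.011), and without RV MCT replicate 1 it was 0.81 (edgeR adjusted p = 0.42). Within the libraries whose description codes read as May or June, 3 per group, it was 1.198 (edgeR adjusted p = 0.043), and within the November libraries, 2 per group, it was 0.39 (edgeR adjusted p = 0.97).

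The RV response of Ccn2 minus its LV response was 1.26 on the log2 scale, with a 95% interval from 0.24 to 2.28. Its unadjusted p was 0.018 in the edgeR fit, and the adjusted p was 0.9999, so the difference between ventricles did not pass. Over all 7 members, 0 were called for this difference, where 0% of all genes were, and 1 of 7 had an unadjusted p under 0.05, against 2.79% of all genes. DESeq2 and limma voom also called 0 of 7. The difference ran from -1.19 for Spp1 to -0.21 for Vim among the 6 other members tested. The Spp1 value was -0.045 without RV saline replicate 1, and that of Acta2 went from -0.96 to -0.27. For Timp1 it was -0.94 with a 95% interval from -2.498 to 0.62, so a weaker or a stronger RV response would both lie within it. Within May and June the Fn1 difference was 0.0045 and that of Ccn2 1.603, and within November they were -2.41 and 0.57, none called by edgeR. That 5 members passed in the LV and 0 in the RV does not show that the ventricles responded differently.

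Ccn2 reads per Fn1 read separated the LV groups. They were 16.6 to 30.5 in LV saline libraries and 1.45 to 1.77 in MCT replicates 1, 2, 4 and 5, with 13.9 in replicate 3. In the RV the saline libraries held 3.67 to 5.14 and MCT replicates 1, 2, 4 and 5 held 1.32 to 2.24, with 5.19 in replicate 3. RV MCT replicate 4 was below the saline range of this ratio, and its Ccn2 level was the lowest of all 20 libraries. Fn1 was called higher in the LV and Ccn2 was not called, so the LV separation by this ratio largely restates the Fn1 rise.

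Vim (ENSRNOG00000018087), the intermediate filament gene, rose about 2-fold in the LV. LV levels were 333, 343, 222, 403 and 613 CPM after MCT and 169, 162, 163, 201 and 144 CPM after saline. The groups did not overlap. Its log2 fold change was 1.19 (SE 0.31, edgeR adjusted p = 0.023). This call was lost without LV MCT replicate 4 or 5 or LV saline replicate 3 or 5, with edgeR adjusted p of 0.052, 0.082, 0.052 and 0.056, while the log2 fold change stayed between 0.93 and 1.17.

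In the RV, Vim stood at 634, 626, 213, 179.9 and 362 CPM after MCT and at 272, 187, 175, 234 and 154 CPM after saline. MCT replicates 3 and 4 lay among the saline libraries. Its RV log2 fold change was 0.98 (SE 0.31, edgeR adjusted p = 0.11), and 1.16 without RV MCT replicate 4 (edgeR adjusted p = 0.018). Leaving out RV MCT replicate 1 instead gave 0.75 (edgeR adjusted p = 0.36).

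Acta2 (ENSRNOG00000058039), smooth muscle alpha-actin, marks vascular smooth muscle and myofibroblasts. It did not pass the test in either ventricle. LV levels were 25.7, 27.5, 19.6, 33.2 and 50.01 CPM after MCT and 27.5, 22.8, 21.6, 35.7 and 26.1 CPM after saline, with wide overlap. The LV log2 fold change was 0.21 (SE 0.35, edgeR adjusted p = 0.76), with a 95% interval from -0.51 to 0.94. It was 0.59 with scaling by total counts alone and -0.029 without LV MCT replicate 5.

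In the RV, Acta2 was at 34.1, 42.1, 32.9, 38.2 and 41.8 CPM after MCT and at 155, 38.5, 50.1, 43.5 and 27.8 CPM after saline. The RV difference of -0.74 on the log2 scale (SE 0.34, edgeR adjusted p = 0.27) became -0.077 without RV saline replicate 1 (edgeR adjusted p = 0.93). The lower RV mean after MCT thus rested on that library. RV saline replicate 1 also had the highest Spp1 level of its group by a wide margin.

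Acta2 reads per Vim read separated the LV groups without any scaling. All 5 LV MCT libraries held 0.0773 to 0.0881, replicate 3 included, and the LV saline libraries 0.133 to 0.181. In the RV the MCT libraries held 0.0538 to 0.212 and the saline libraries 0.181 to 0.568, which overlapped through MCT replicate 4. LV MCT replicate 3, which was within the saline range for Timp1 and Spp1, was outside it by this ratio, as it was for TMM-scaled Vim alone. Vim was called higher in the LV and Acta2 was not called, so for the group the ratio largely restates the Vim rise. In LV MCT replicate 3, Vim was 1.32 times and Acta2 0.733 times the LV saline mean, so both lowered its ratio. How many other gene pairs separate the LV groups was not computed.

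**Figure D4:**
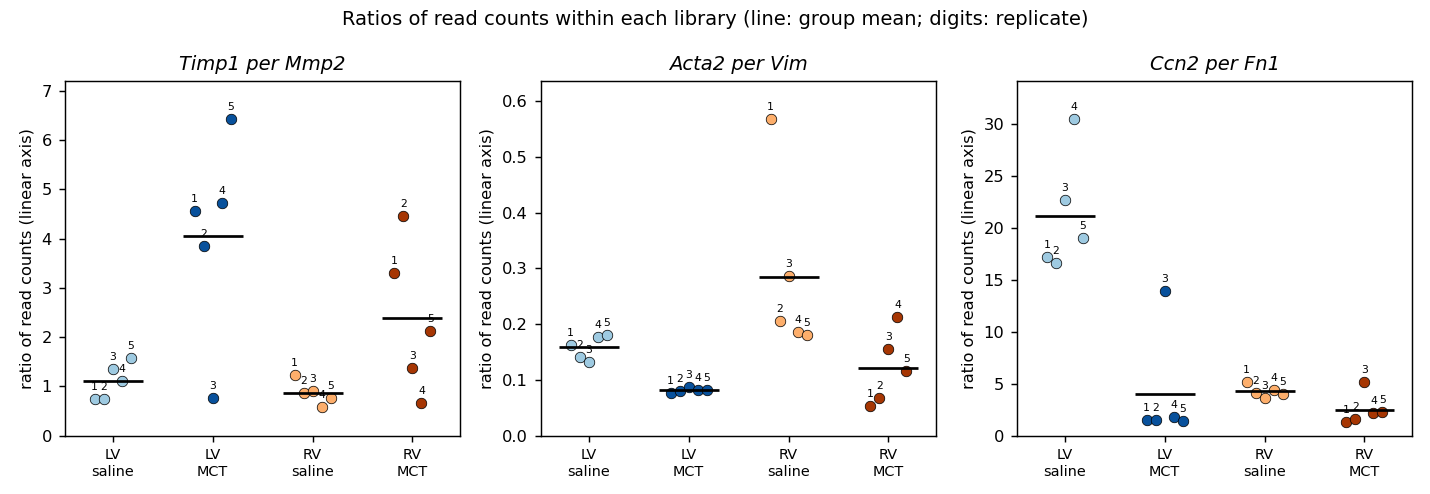
Read count of one gene over that of another in each library, for Timp1 per Mmp2, Acta2 per Vim and Ccn2 per Fn1, by group on a linear axis from 0. Points are libraries with their replicate numbers and lines are group means. The 5 LV MCT libraries lie at 0.0773 to 0.0881 Acta2 reads per Vim read, below all LV saline libraries.

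The saline ventricles were compared to show where the members started. After saline, 0 of 7 members were called between RV and LV, where 0.0732% of all genes were, and 4 of 7 had an unadjusted p under 0.05 in the edgeR fit, against 8.32% of all genes. DESeq2 called 0 of 7 and limma voom called Mmp2 and Ccn2, 2 of 7, against 1.04% of all genes. Fn1 was at 64.6 ± 16.1 CPM (SD, n = 5) in the RV and 28.1 ± 8.23 in the LV, with no overlap, as in 1.59% of all genes in that direction. Its RV minus LV log2 difference was 1.21 (SE 0.55, edgeR adjusted p = 0.56). Ccn2 was at 278 ± 93.3 CPM in the RV and 568 ± 112 in the LV, also with no overlap, as in 1.77% of all genes in that direction. Its log2 difference was -1.03 (SE 0.35, edgeR adjusted p = 0.35). With CPM from total counts the Fn1 separation held and that of Ccn2 was lost. With that scaling, 4.17% of all genes lay entirely higher in the RV and 0.412% entirely lower. When the saline libraries were fitted alone, Fn1 and Ccn2 passed (edgeR adjusted p = 0.0296 and 0.046), 2 of 7 members against 0.805% of all genes.

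Acta2 had an RV minus LV log2 difference of 1.24 after saline (SE 0.35, edgeR adjusted p = 0.22). Without RV saline replicate 1 it was 0.56 (edgeR adjusted p = 0.59). Mmp2 had one of 0.65 (SE 0.21, edgeR adjusted p = 0.32). Within May and June and within November, the saline difference was 1.35 and 0.94 for Fn1, -0.75 and -1.51 for Ccn2, and 1.76 and 0.20 for Acta2, none called by edgeR. In neither Acta2 nor Mmp2 were the 5 RV saline libraries all above the 5 LV saline libraries. This comparison and the response to MCT use the same saline libraries, so its values are not independent of the fold changes given above.

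After MCT, 0 of 7 members were called between RV and LV, where 0% of all genes were, and 0 of 7 had an unadjusted p under 0.05 in the edgeR fit, against 1.86%. DESeq2 and limma voom also called 0 of 7. No member had groups that did not overlap, where 0.0732% of all genes lay higher and 0.0366% lower in the RV. The log2 differences ran from -0.54 for Timp1 to 0.28 for Acta2, with a 95% interval for Timp1 from -1.59 to 0.52. Their sign differed between the months: the RV minus LV value was 0.43 within May and June and -2.26 within November for Timp1. For Fn1 it was 1.36 and -1.47, for Spp1 0.74 and -1.99, for Ccn2 0.86 and -0.94, and for Vim 0.73 and -0.90. None of these passed the edgeR threshold in either set, and LV MCT replicate 3 belongs to the first set and RV MCT replicate 4 to the second. Over the 4 groups, the mean level of Mmp2, Fn1 and Vim was highest in RV MCT, that of Timp1, Spp1 and Tgfb1 in LV MCT, that of Ccn2 in LV saline and that of Acta2 in RV saline. Groups next to each other in these orders overlapped in every member, except RV saline above LV saline for Fn1.

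The libraries of a group differed more after MCT than after saline, except for Mmp2 and Tgfb1 in the LV and Spp1 and Acta2 in the RV. The coefficient of variation (SD over the mean) of Timp1 was 61.4% in LV MCT and 17.3% in LV saline, and 78.4% in RV MCT and 32.5% in RV saline. For Fn1 it was 73.4% and 29.3% in the LV and 80.7% and 25.0% in the RV. Acta2 was least variable in RV MCT, at 11.2%. Mmp2 went the other way in the LV, at 17.8% after MCT and 29.7% after saline.

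Timp1, Fn1 and Spp1 also varied together from library to library. Over the 20 libraries, the Pearson correlation of log2 CPM between Timp1 and Spp1 was 0.96, which made Timp1 the gene most like Spp1 among 6889 other genes with a mean log2 CPM of at least 3. Seen from Timp1, Spp1 was in place 4 and Fn1 in place 29. With each group mean subtracted, the correlation was 0.94 between Timp1 and Fn1, 0.92 between Timp1 and Spp1 and 0.86 between Timp1 and Vim, and Fn1 was in place 4 among the genes most like Timp1. Genes in a library share its depth and scaling, and RV and LV libraries of a number may share an animal, so these values are a description of 20 libraries. The genes closer than these carry no symbol in the files and are not named.

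RV and LV libraries of a treatment with the same number carry description codes that differ only in the letter for the ventricle, and whether they came from one animal is not stated. In MCT number 4 the LV library held 114 CPM Timp1, 209 CPM Fn1 and 142 CPM Spp1, and the RV library 11.9, 60.9 and 8.402 CPM. In number 3 the LV library held 15.2, 39.8 and 12.95 CPM, and the RV library 38.2, 115 and 34.2 CPM. In numbers 1, 2 and 5 both ventricles were above all their saline libraries in these 3 genes. In number 3, LV Fn1 was above every LV saline library and RV Spp1 was below RV saline replicate 1.

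Read as dates, the description codes put 3 libraries per group in May or June and 2 in November. In the LV, the Timp1 log2 fold change was 2.63 within May and June (edgeR adjusted p = 0.28) and 3.297 within November (edgeR adjusted p = 0.026). The Spp1 value was 3.43 within May and June (edgeR adjusted p = 0.30) and 4.098 within November (edgeR adjusted p = 0.060). The Fn1 value was 2.47 within May and June (edgeR adjusted p = 0.28) and 3.703 within November (edgeR adjusted p = 0.026). Mmp2 and Vim had LV values of 0.73 and 0.85 within May and June and 1.17 and 1.55 within November, none of which passed the edgeR threshold. Over all genes, the LV calls were 0 within May and June and 243 within November.

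In the RV, the order of the sets was the other way for Fn1 and Timp1. The Fn1 value was 2.48 within May and June (edgeR adjusted p = 0.054) and 1.29 within November (edgeR adjusted p = 0.96). That of Timp1 was 2.26 (edgeR adjusted p = 0.074) and 1.28 (edgeR adjusted p = 0.96). That of Spp1 was 2.58 (edgeR adjusted p = 0.14) and 2.84 (edgeR adjusted p = 0.96). Over all genes, the RV calls were 188 within May and June and 0 within November, where the lowest edgeR adjusted p was 0.96. LV MCT replicate 3 belongs to the first set and RV MCT replicate 4 to the second, so the month and these libraries cannot be told apart.

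**Figure D5:**
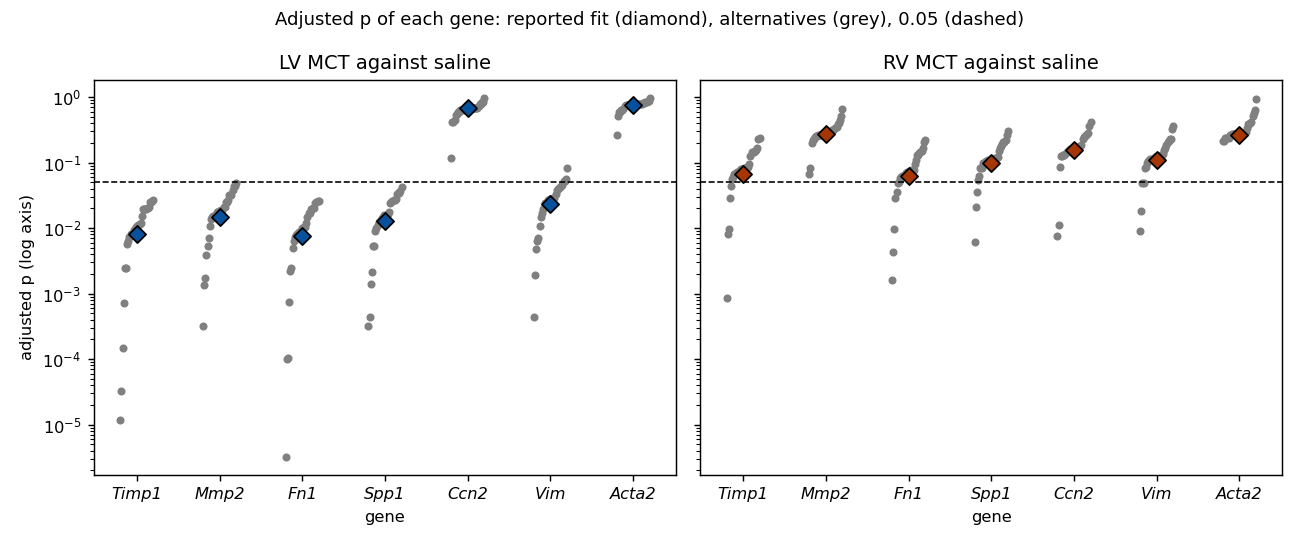
Adjusted p of each gene on a log axis in the LV (left) and RV (right), with the reported fit as a diamond, the alternative fits as grey points and 0.05 as a dashed line. In the LV, Timp1, Mmp2, Fn1 and Spp1 stay below the line in every alternative plotted (fits within a set of months are not) and Vim does not; in the RV, the diamonds lie above the line and some alternatives below it.

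Across the 30 alternative fits, those within a set of months not counted, Timp1, Mmp2, Fn1 and Spp1 passed the LV threshold in each, with adjusted p up to 0.026, 0.048, 0.026 and 0.042. The RV calls depended on single libraries. With the RV groups fitted alone 0 members were called, where 0 of all 10407 genes were. Leaving out RV MCT replicate 1 or 2 also gave 0 members, where 2 of all genes were called higher in each fit. Without RV MCT replicate 4, Timp1, Fn1, Spp1, Ccn2 and Vim were called higher in the RV by edgeR, 5 members against 4.08% of all genes. Without RV MCT replicate 3 Timp1, Fn1 and Vim were called, against 1.78% of all genes. Without LV MCT replicate 3 Timp1 and Fn1 were called, against 1.63%, and without LV MCT replicate 5 Fn1 was, against 0.881%. Without both LV MCT replicate 3 and RV MCT replicate 4, the 5 genes named first were called, against 5.79%. Leaving out RV MCT replicate 4 because it resembles saline favours calls, and none of those counts is an estimate of the response. Without LV MCT replicate 3 or 5 the RV libraries are unchanged, and the RV log2 fold change of Fn1 stayed at 2.17. The spread behind the RV test is estimated over all 4 groups.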

How the data were processed

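Messenger RNA was read from the 3' ends of transcripts (QuantSeq libraries, 150 bp read pairs, per the labels' protocols). The authors deposited raw read counts per Ensembl gene for 20 libraries. The submitters' processing notes name the aligner STAR (2.7.10a) and the counter HTSeq (0.11.3). They list the builds mRatBN7.2 and rn6 without roles, and the strand setting is not given in the sources used here, so overlapping genes could share counts. Totals ran from 3272420 to 9227104, which limits precision for weakly expressed genes such as Tgfb1.

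The deposited counts were tested with edgeR 4.0.16 (R 4.3.3): TMM scaling, the filterByExpr filter (10929 genes kept), one model with a mean for each of the 4 groups, fitted to the 20 libraries with robust quasi-likelihood, and p-values adjusted by Benjamini-Hochberg over all genes, with a threshold of 0.05. Standard errors came from the F statistic. Log2 CPM for correlations used a prior count of 2. Groups came from the labels. The fit was tested on simulated data with 200 genes raised in RV MCT. It recovered 56% of 2-fold and 99% of 4-fold changes, with 10 false calls, so changes of about 2-fold could be missed in the RV. The simulated data held no libraries that stand apart, so these rates do not carry over to the real RV. There, Timp1, Fn1 and Spp1, with folds of 4.11, 4.50 and 6.18, were not called. Alternatives were RLE or total-count scaling (the latter chosen after seeing the data), other filters, the month of the description code, the groups compared alone, a replicate block, each library left out, DESeq2 1.42.0 and limma 3.58.1 voom.

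The members, gene lists and tests were chosen with earlier results of these data known. Every member is named with its values. Symbols of the 8 members came paired with their Ensembl identifiers. The count table gives no symbols and the RefSeq table used here holds no Ensembl identifiers, so the planned lists of other matrix, signalling and cell type marker genes were not analysed here, and the tissue was not checked against its markers.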

Additional observations from a re-analysis of the deposited data

Results flagged for a closer look

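Of 32 sets of 5 values (8 genes in 4 groups), 2 held a library far from the other 4 in CPM. For normally spread values chance picks about 1 in 20, so 2 of 32 is near that rate. CPM need not be spread that way, and log2 values were not checked. In both sets the library was RV saline replicate 1. Its Acta2 level was 155 CPM, against 27.8 to 50.1 CPM in the other RV saline libraries. Its Spp1 level was 61.5 CPM, against 7.004 to 11.4 CPM in the others. Without it, the RV log2 fold change of Acta2 was -0.077 in place of -0.74, and that of Spp1 was 3.75 in place of 2.63.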

How the results depend on the processing

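The LV count of 5 members called became 4 to 5 with 1 library left out and 5 in the other alternatives that use all months. Within the May and June libraries alone it was 0, where 0 of all 10838 genes tested were called. Within November it was 2, Timp1 and Fn1, where 243 of all 11121 genes were called, 152 of them higher. The RV count of 0 was 4 with DESeq2 and 5 without both LV MCT replicate 3 and RV MCT replicate 4 (5.79% of all genes higher), and leaving out 1 library gave 0 to 5, with 2 without LV MCT replicate 3 (1.63% of all genes higher) and 1 without LV MCT replicate 5 (0.881%). RV against LV after saline gave 0 members, 2 with only the saline groups and 2 with limma voom. Members without overlap fell from 3 to 0 in the LV, and from 2 to 1 between saline ventricles, with CPM from total counts. The share of all genes entirely higher in LV MCT went from 3.21% to 5.70%. Between saline ventricles, the share entirely higher in the RV went from 1.59% to 4.17% and the share entirely lower from 1.77% to 0.412%. With CPM from total counts, LV MCT replicate 3 held 15.7 CPM of Mmp2, 31.3 of Fn1 and 175 of Vim. The highest LV saline libraries held 15.9, 36.5 and 179 CPM, and the other LV MCT libraries stayed above these. For Ccn2, RV saline replicate 1 held 478 CPM, above the lowest LV saline library at 372 CPM. The cause of the changes over all genes was not tested. Signs turned only in values that had not passed. Ccn2 in the LV was 0.034 with total-count scaling. Between MCT ventricles, Fn1 was -0.042 and Vim -0.19 with limma voom, and Vim was -0.034 with the replicate block. Leaving out 1 library gave -0.029 to 0.34 for Acta2 in the LV and -0.41 to 0.048 for the difference of responses of Vim, with the positive end of the latter and the negative end of the former without LV MCT replicate 5. It gave -0.32 to 1.03 for Spp1 between saline ventricles, the former without RV saline replicate 1. Between MCT ventricles it gave -0.14 to 0.79 for Fn1, -0.79 to 0.20 for Spp1 and -0.14 to 0.32 for Vim, the lowest without RV MCT replicate 1 and the highest without LV MCT replicate 5. The replicate block tied MCT and saline libraries of a number for the RV and LV responses. For the other comparisons it tied RV and LV libraries of a number. With it the members called were 0 in the RV, 5 in the LV and 0 in the other comparisons. Over all 10929 genes the calls were 0 in the RV, 549 in the LV and 9 between saline ventricles. MCT and saline libraries with the same number deviated together in only some pairs (correlations of -0.23 to 0.21 in the RV, -0.32 to 0.22 in the LV), so the numbers do not pair the treatments. The block used for the RV and LV responses was thus arbitrary. RV and LV libraries with the same number share a description code, which may mark an animal or a day; their correlations were -0.35 to 0.24 after MCT and -0.18 to 0.59 after saline, and numbers 2, 4 and 5 after saline correlated best with their own number. Whether they are paired is not stated.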
